A study of Rattus norvegicus with 2 samples.

Results

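The genes examined were 10 markers of osteoblasts, the cells that lay down bone matrix, and of osteocytes, the cells that osteoblasts become when the matrix encloses them. They were Runx2, Sp7, Alpl, Phex, Spp1, Ibsp, Dmp1, Mepe, Bglap and Sost. Each was looked up by gene name in an annotation of transcripts assembled from rat femur, with letter case and the endings for predicted or mapped genes ignored. By this rule 8 of the 10 genes were found among 12567 gene names, and they carried 18 of the 43391 transcript models. Bglap and Mepe were not found by name.

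RNA-seq was performed on total RNA from ground femurs of female wild-type (WT) Wistar rats after bilateral ovariectomy (OVX), which removes the ovaries, or after a sham operation (SHAM), which leaves them in place. The labels name 1 OVX sample and 1 SHAM sample, both at 16 weeks, and do not say what the weeks count from. A further tag in the labels reads old for OVX and young for SHAM, words that the study's text does not apply to these rats, so the groups follow the operation. The study's methods describe several sequenced rats per group and a different duration, and which rats these samples stand for is not given in the sources used here. The files analysed here hold the positions of transcript models and of 1507 new genes, with no count, expression value or coverage for either sample. The depth was therefore unknown, no member could be compared between OVX and SHAM, and everything below describes which transcripts were assembled and not how abundant they were.

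The record of a model gives the number of assemblies, 1 or 2, that contained it. The order of the transcript numbers separated a first and a second assembly, with 4896 models in both, 19314 in the first alone and 19181 in the second alone. Neither assembly could be assigned to a group or a rat. Each model also carries a class code from the comparison with a reference annotation. Code = marks a model whose whole chain of introns matches a reference transcript, and code c a fragment contained in a reference transcript. Code j marks a spliced model that matches a reference transcript in part of its splice sites but not in its whole chain, and code n a model with a retained intron. Positions are those of the deposited annotation. The submitters' processing notes name the build rn4, but the sequences carry GenBank names and many genes carry names in the style of another rat assembly. The build of the printed positions is therefore uncertain, and they were not checked against a genome.

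Osteoblasts arise from mesenchymal cells under the transcription factor Runx2, which is needed for the lineage to form, and its downstream factor Sp7 (osterix). The maturing cells secrete collagen and acidic phosphoproteins, and alkaline phosphatase on their surface breaks down pyrophosphate, an inhibitor of mineral growth. Osteocytes then take over endocrine and signalling tasks, among them the control of phosphate through Phex and Dmp1 and the restraint of Wnt signalling through sclerostin, the product of Sost.

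Promoter sequences of the members were taken from RefSeq for the build GRCr8, whose coordinates were not matched to the deposited positions. The table held 9 entries for 8 of the 10 members, with 2 entries for Runx2, and no entry for Sp7 or Phex. The Runx core motif was searched only in the form ACCACA, or TGTGGT on the other strand, and other forms of it were not counted. This form occurred in the 250 bases before the start in 3 of the 9 entries, against 14.5% of 33469 promoters of the same length. These were Bglap, Mepe and the distal entry of Runx2. Bglap, which encodes osteocalcin, is a classical target of Runx2, and Runx2 is also known to bind its own promoter. Printed here are both Runx2 entries, because assembled Runx2 models began at 2 places, and the Bglap entry, because it holds both motifs that were searched. Each runs 5′ to 3′ over the 250 bases before the start, and capitals mark the Runx motif. The distal Runx2 entry is chr9:23664808-23665057 on the plus strand, the proximal Runx2 entry is chr9:23742990-23743239 on the plus strand, and the Bglap entry is chr2:176137319-176137568 on the minus strand, all in GRCr8.
Runx2, distal start: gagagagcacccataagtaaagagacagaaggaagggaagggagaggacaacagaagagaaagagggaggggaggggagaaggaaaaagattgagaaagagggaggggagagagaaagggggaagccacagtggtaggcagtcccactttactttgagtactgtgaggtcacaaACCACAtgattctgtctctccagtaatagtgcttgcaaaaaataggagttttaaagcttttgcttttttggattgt
Runx2, proximal start: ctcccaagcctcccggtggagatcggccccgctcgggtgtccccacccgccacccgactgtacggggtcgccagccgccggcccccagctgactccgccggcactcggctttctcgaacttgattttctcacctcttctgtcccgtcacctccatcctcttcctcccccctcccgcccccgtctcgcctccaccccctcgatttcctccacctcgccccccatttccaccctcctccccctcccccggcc
Bglap: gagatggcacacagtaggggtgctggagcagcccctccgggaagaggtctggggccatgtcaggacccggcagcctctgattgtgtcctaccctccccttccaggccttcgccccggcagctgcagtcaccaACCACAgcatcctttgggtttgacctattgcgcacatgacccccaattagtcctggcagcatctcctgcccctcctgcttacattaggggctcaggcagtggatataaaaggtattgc
In the distal Runx2 sequence the motif began 76 bases before the start, and in the Bglap sequence 118 bases before it. The proximal Runx2 sequence had no match and was richer in G and C, at 70% against 45.6% for the distal sequence and 59.2% for Bglap. A TATA motif, searched as TATAAA and on the other strand as TTTATA, occurred in 3 of the 9 entries against 12.9% of all promoters. These were Bglap, Spp1 and Ibsp, with the match 15, 204 and 39 bases before the start. The match of Ibsp was in the inverted form, for which the rat promoter of this gene is known. A match describes letters in the window and does not show that a factor was bound in these femurs.

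Both transcription factors were assembled in each assembly, but no Runx2 or Sp7 model was shared between the assemblies. Most gene names had no shared transcript either, since 30.8% of them had one. Runx2 (XLOC_009209) covered 204 kb of chromosome 9 on the plus strand, from 13904556 to 14108120, with 3 models. The first assembly held a model of 7 exons and 1342 bp and a model of 6 exons and 1168 bp. The second assembly held a model of 8 exons and 1531 bp. The 7 exon model shared its 6 junctions with the model of the second assembly and differed from it at both ends. The 6 exon model also left out an exon, as described below.

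The Runx2 model of the second assembly began 78.0 kb upstream of the models of the first assembly and reached its next exon across an intron of 77.6 kb. That next exon was 389 bp long, and the models of the first assembly began inside it, 237 bp from its 5′ edge. Runx2 is known to be transcribed from a distal and a proximal promoter, which give proteins with different amino ends. The starts of the 2 Runx2 entries printed above lie 78.2 kb apart in GRCr8. Whether the assembled starts are these promoters was not tested, since a contained fragment can begin anywhere inside a reference transcript. Downstream of the start, the 6 exon model of the first assembly passed over an exon of 174 bp that both other models contained, and it had code j. Of the 8 distinct Runx2 junctions, 6 occurred in both assemblies, 1 in the first alone and 1 in the second alone.

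Sp7, the zinc finger factor that acts after Runx2, lay on the minus strand of chromosome 7 from 129917697 to 129927635 (XLOC_008198). The first assembly held a full-chain model of 2 exons, 119 and 2795 bp long. The second assembly held a model of 2 exons, 30 and 1654 bp long, that began 412 bp further upstream. Both models entered the last exon at the same acceptor and left different first exons, so that neither of the 2 junctions was shared. Sp7 and Phex were the members found without a single junction in both assemblies. Over all gene names, 53.7% of junctions were in both.

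Alpl and Phex, an enzyme and a peptidase that act on the balance between phosphate and mineral, were assembled differently. Alpl encodes tissue-nonspecific alkaline phosphatase and was assembled over its full reference chain in both assemblies. Phex encodes a membrane endopeptidase of osteoblasts and osteocytes whose loss causes X-linked hypophosphataemia, and it was assembled as fragments in the second assembly alone. Over all gene names, 76.5% had models in both assemblies.

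Alpl (XLOC_006303) lay on the minus strand of chromosome 5 from 148347366 to 148402311, with 2 full-chain models of 12 exons that shared 11 exons. They differed in the first exon. The upstream first exon of 83 bp, followed by an intron of 35.4 kb, belonged to the model found in both assemblies, which was 2435 bp long. The downstream first exon of 147 bp began 25.7 kb closer to the gene body and belonged to a model of 2499 bp found in the second assembly alone. Alternative noncoding first exons are known for this gene, with the upstream exon used mainly in bone and the downstream exon mainly in liver and kidney. The models give no share of transcription for either exon. Of the 12 Alpl junctions, 11 were in both assemblies, and the other joined the downstream first exon.

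Phex (XLOC_016375) spanned 235 kb of the plus strand of chromosome X, from 38233491 to 38468487. Its 3 models were all contained fragments, with 3 exons and 519 bp, 5 exons and 475 bp, and 3 exons and 235 bp. The other fragments began 62.7 kb and 231 kb downstream of the first, and none overlapped another. Together they covered 1229 bp of exon, and none of the 8 Phex junctions occurred in the first assembly. The longest Phex model ranked at the 25.8 percentile of the longest models of all gene names. In a bulk tissue, fewer cells of a type and less RNA per cell cannot be told apart when a transcript is assembled in part or is not assembled, and the unknown depth adds to this limit.

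**Figure D1:**
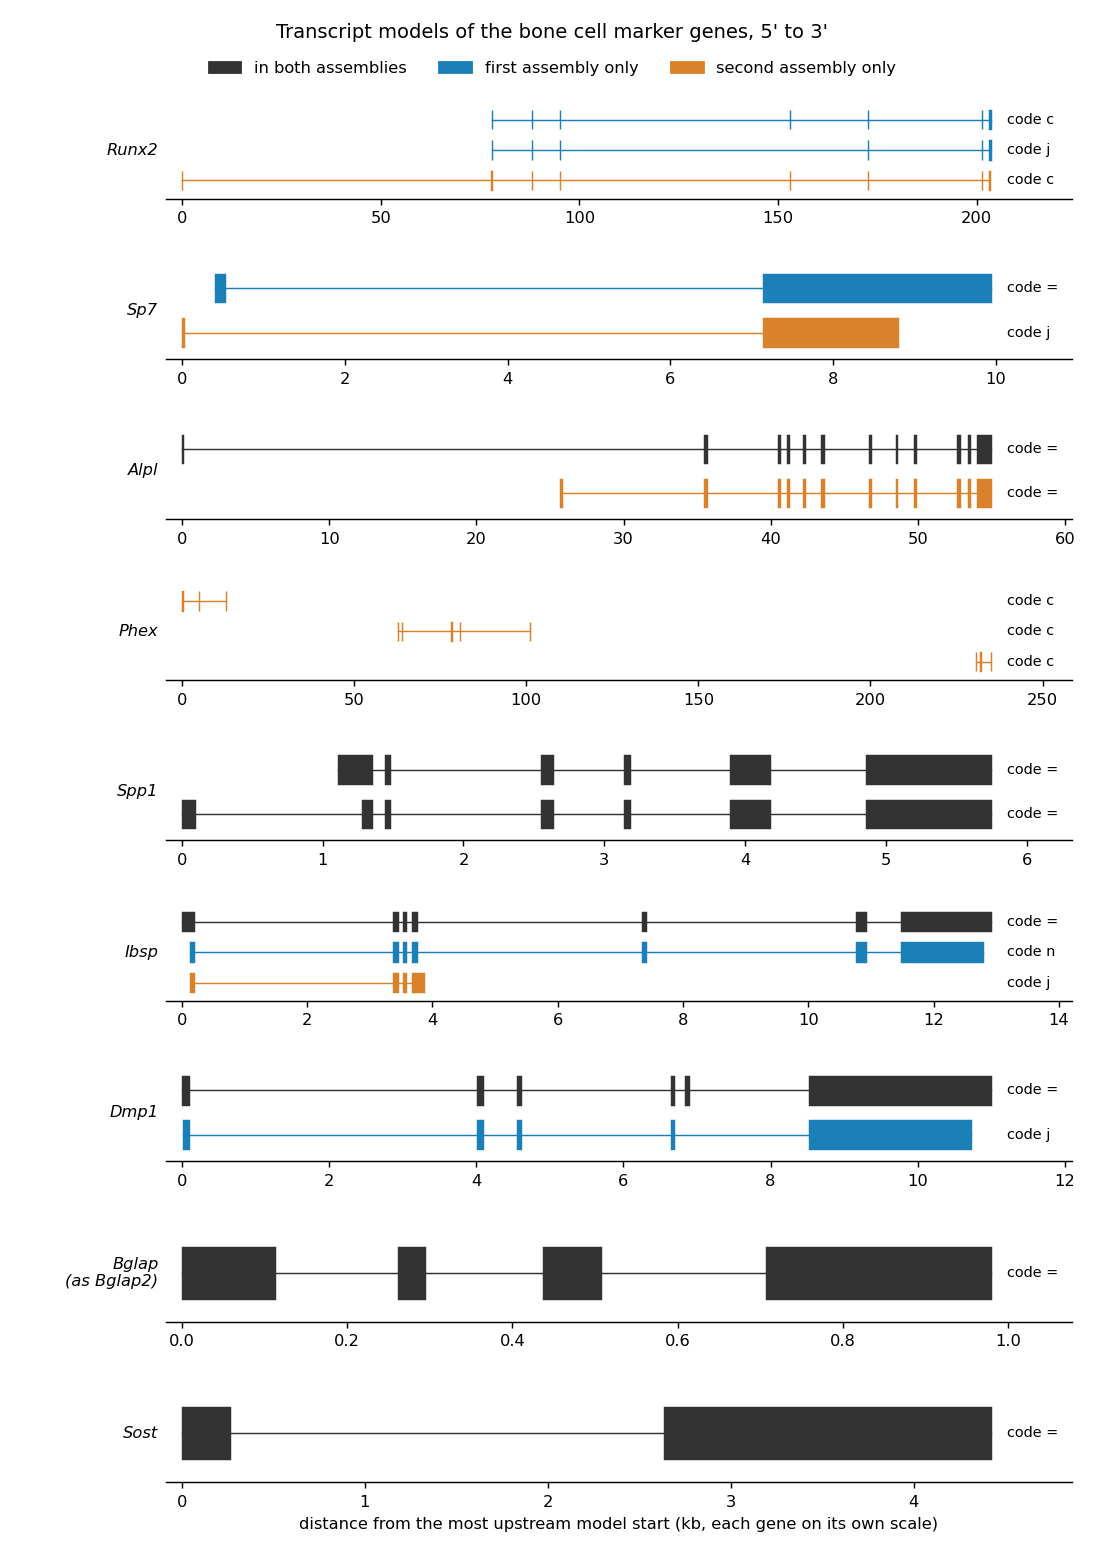
Transcript models of the 8 genes found by name and of Bglap as Bglap2, drawn 5′ to 3′ with boxes for exons and lines for introns; the horizontal axis is the distance in kb from the most upstream model start, on a scale of its own for each gene. Black models were in both assemblies, blue in the first alone and orange in the second alone; Runx2 has starts 78.0 kb apart, Alpl has starts 25.7 kb apart, and all 3 Phex models are orange fragments.

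The acidic matrix proteins Spp1, Ibsp, Dmp1 and Mepe belong to the family of small integrin-binding glycoproteins, which bind calcium and the cell surface and shape mineral growth. Spp1 (osteopontin), Ibsp (bone sialoprotein) and Dmp1 (dentin matrix protein) each had a full-chain model in both assemblies. Of their 19 distinct junctions, 18 were in both assemblies. Mepe, the matrix extracellular phosphoglycoprotein of osteocytes, was not found by its name or by its older symbol.

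Spp1 (XLOC_013171, chromosome 14, 5447811 to 5453557, minus strand) had 2 models, both full-chain and both shared, and no other member had more than 1 shared model. They had 6 exons and 1566 bp or 7 exons and 1494 bp, and their last 5 exons were identical. The 7 exon model began 1.11 kb further upstream with an exon of 96 bp and continued with an exon of 68 bp. The 6 exon model began with an exon of 236 bp, which is the 68 bp exon with 168 bp more at its 5′ end. Both chains of Spp1, with their different starts, were thus recorded in each assembly, although the files do not give the ends of a model in each.

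Ibsp (XLOC_013173, chromosome 14, 5578655 to 5591570, minus strand) had a shared full-chain model of 7 exons and 2059 bp. A model of code n in the first assembly had 7 exons and 1814 bp, and a model of code j in the second had 4 exons and 372 bp. Both codes were given against another reference transcript than that of the full-chain model, and the model of code n retained none of the introns of the full-chain model. In both of these the first exon ended 5 bp further downstream than in the full-chain model. This junction was found in both assemblies although no single model carried it in both. The 4 exon model ended in an exon of 184 bp, which is the 78 bp exon of the other models with 106 bp of the following intron.

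Dmp1 (XLOC_013174, chromosome 14, 5667320 to 5678315, minus strand), which osteocytes secrete into the matrix, had a shared full-chain model of 6 exons and 2774 bp. Its last exon held 2478 bp of this length. A model of the first assembly with 5 exons and 2442 bp passed over the exon of 45 bp that precedes the last exon. The new junction was absent from the second assembly, and the other 5 Dmp1 junctions were in both.

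Bglap, the gene of the matrix protein and hormone osteocalcin, had no model under that name. RefSeq lists Bglap2 as an older symbol of rat Bglap, and a gene of that name (XLOC_002914) lay on the minus strand of chromosome 2 from 167783259 to 167784237. It had 1 model of 4 exons and 488 bp, with code = and found in both assemblies. Its exons were 113, 33, 70 and 272 bp long and fitted within 0.979 kb. Counted in this way, 9 of the 10 members were present. Counts elsewhere in the text leave Bglap2 out unless it is named.

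Sost (XLOC_011066, chromosome 10, 85630342 to 85634764, minus strand), the osteocyte gene of the secreted Wnt antagonist sclerostin, had a single model. It was full-chain, had exons of 262 and 1785 bp, and was found in both assemblies. Its 1 junction was therefore in both, and no alternative start or exon was assembled for Sost.

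Spp1, Ibsp and Dmp1 lay in this order on the same strand within 231 kb of chromosome 14, with 125 kb between Spp1 and Ibsp and 75.7 kb between Ibsp and Dmp1. In GRCr8 the protein-coding genes of the interval follow as Spp1, Mepe, Ibsp and Dmp1, with Dspp next. In the deposited annotation a single named locus on that strand lay between Spp1 and Ibsp, 7.64 kb from Ibsp (rCG_37815, XLOC_013172, 5559403 to 5571012). It had 4 models with up to 3 exons, of codes =, =, c and j, and the longest was 1658 bp. None of these models was shared between the assemblies. Which gene this locus is was not tested, and it was not counted as a member. Dspp was not found by name either.

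Exon lengths were compared over the full-chain models, which 4848 of the 12567 gene names had. In Spp1, Ibsp and Dmp1 the 14 distinct internal exons of such models had a median length of 66.5 bp (33 to 279 bp), against 119 bp over 18660 internal exons of all full-chain models with a gene name. The length was a multiple of 3 in 12 of the 14 (85.7%), against 40.3% of those 18660 exons. Such an exon, where it is coding, can be left out without a shift of the reading frame. The exceptions were the second exon of the 7 exon Spp1 model and that of Ibsp, of 68 and 67 bp. From the third exon on, all 11 were multiples of 3, against 41.3% of 15347 such exons in all full-chain models, a limit chosen after the lengths had been seen. Alpl had 5 of 10 internal exons of such a length and Bglap2 had 1 of 2. Runx2 and Phex had no full-chain model, and over all their models 4 of 6 distinct internal exons of Runx2 and 3 of 5 of Phex were multiples of 3. The 4 of Runx2, from 66 to 174 bp long, followed each other, so that such a run was not limited to the matrix genes. The internal exons that a member's model passed over, 174 bp in Runx2 and 45 bp in Dmp1, were multiples of 3. Of the first exons that lay inside an intron of another model, that of Alpl (147 bp) was a multiple of 3 and that of Sp7 (119 bp) was not.

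**Figure D2:**
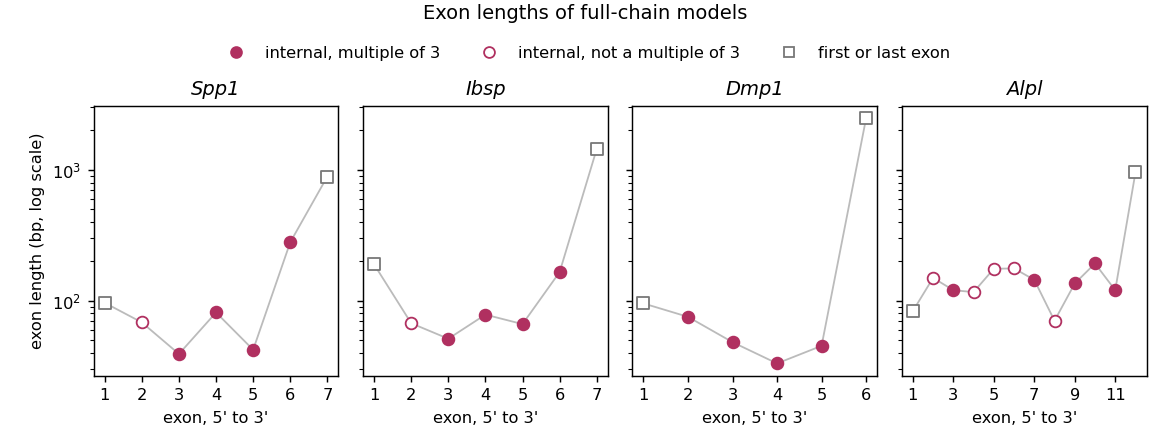
Exon length in bp on a log scale against exon number from 5′ to 3′ in a full-chain model of Spp1, Ibsp, Dmp1 and Alpl. Filled circles are internal exons whose length is a multiple of 3, open circles other internal exons and squares the first and last exons; from exon 3 on, the internal exons of Spp1, Ibsp and Dmp1 are all filled, while 4 of the 9 of Alpl are open.

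Splice junctions can be compared between assemblies even where whole models differ. The 8 genes had 50 distinct junctions, of which 36 (72%) were in both assemblies, 3 in the first alone and 11 in the second alone. Over all gene names, 53.7% of 98041 junctions were in both. Of the 11 junctions of the second assembly alone, 8 belonged to Phex. Without Phex, a choice made after these values were seen, 85.7% of the members' junctions were in both. The unshared junctions therefore came mostly from a single gene, and the remaining ones were alternative first exons of Runx2, Sp7 and Alpl and skipped exons of Runx2 and Dmp1.

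**Figure D3:**
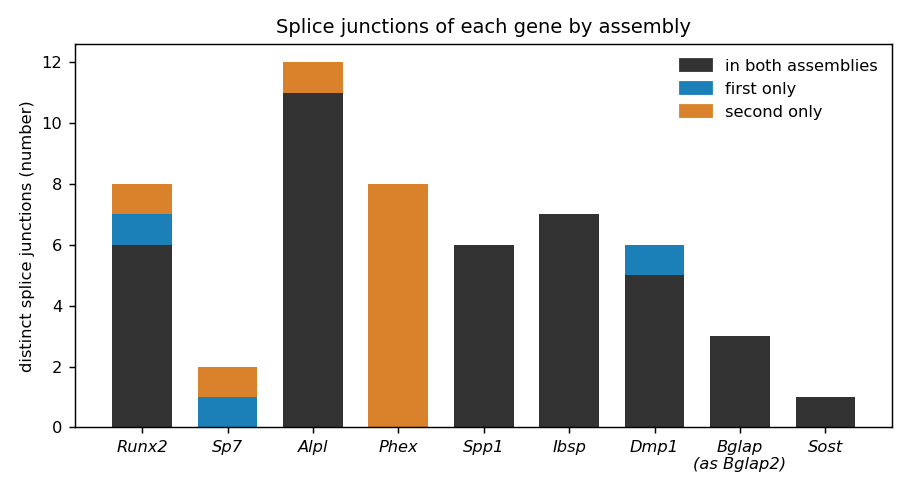
Number of distinct splice junctions of each gene, stacked by the assembly that contained them. All 8 Phex junctions are in the second assembly alone, neither of the 2 Sp7 junctions is shared, and all junctions of Spp1 (6), Ibsp (7), Bglap2 (3) and Sost (1) are in both.

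The members were set beside all 12567 gene names of the annotation. Models in both assemblies were present for 7 of the 8 genes, against 76.5% of all names, and a full-chain model for 6 of the 8, against 38.6%. A transcript recorded in both assemblies was present for 5 of the 8, against 30.8%, and in each of these genes a full-chain model was among the shared ones, against 20.1% of all names. Those genes were Alpl, Sost, Spp1, Ibsp and Dmp1, the enzyme of mineralisation, 3 matrix proteins and the osteocyte Wnt antagonist. Runx2, Sp7 and Phex had no shared transcript. With 8 genes, each of these counts is small, and they describe the members without a test.

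Of the 18 models of the members, 6 (33.3%) were recorded in both assemblies, against 12.2% of the 38614 models with a gene name. Models of a gene share exons and are not independent, and Spp1 alone gave 2 of the 6. All 6 shared models had code =. This code marked 8 of the 18 members' models (44.4%), against 15.4% of all models with a name, and 50.2% of such models over all names were shared. Contained fragments made up 5 of the 18 (27.8%), against 56.1%, and 4.85% of fragments over all names were shared. Code j marked 4 models (22.2%, against 25.6%) and code n 1 model (5.56%, against 0.826%). Over the whole annotation, full-chain models were thus shared more often than fragments, and the members' models were described beside that background without a test.

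The members' longest models were also longer than usual for the annotation. Their median exon length was 2053 bp, against 1000 bp over all gene names, and their median number of exons was 6, against 4. The median number of models per gene was 2 in both. Sp7 ranked highest in length, at the 88.2 percentile, and Phex lowest, at the 25.8 percentile, with Bglap2 at the 24 percentile when it was counted. What part length had in the sharing between assemblies was not tested.

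**Figure D4:**
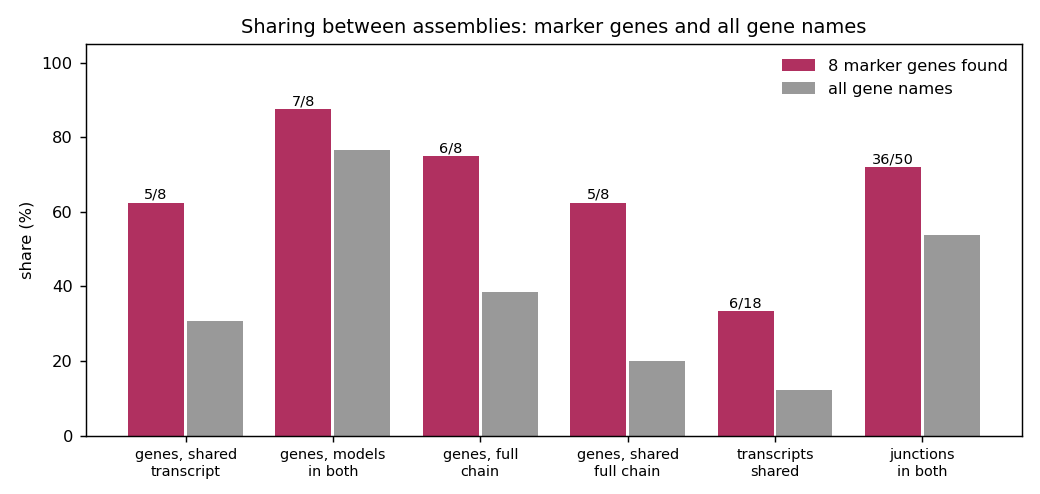
Share in percent of the 8 genes found by name (red) and of all gene names (grey) that met each description, with counts above the red bars; bars for transcripts and junctions are shares of transcripts and junctions. The red bar is higher in each of the 6 pairs, from 7 of 8 genes with models in both assemblies against 76.5% to 5 of 8 genes with a shared full-chain model against 20.1%. The 6 pairs describe the same genes and are not independent, and with 8 genes the first of these shares is near that of all names.

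Other genes of the same pathways were looked up by the same rule, and 18 of 25 were found. A transcript in both assemblies was present for 7 of these 18, beside 30.8% of all gene names. Of 5 bone matrix genes, Col1a1, Col1a2, Sparc and Mgp were found, and each had a transcript in both assemblies. Col1a1, which encodes a chain of type I collagen, the main protein of bone matrix, had a shared full-chain model of 51 exons and 5827 bp. Of 7 factors of the osteoblast lineage, Dlx3, Dlx5 and Cbfb were found without a shared transcript, a count too small to set apart from all gene names, most of which had none. Dlx5 had a full-chain model. Cbfb encodes the partner protein with which Runx2 binds DNA.

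Of 6 further genes of mineralisation, 5 were found, and 1 of these 5 had a shared transcript, a share near that of all gene names. This was Phospho1, a phosphatase of matrix vesicles. Enpp1, which makes the pyrophosphate that alkaline phosphatase removes, had 6 models and none was shared. Of 4 genes of osteocytes, Pdpn, Dkk1 and Gja1 were found and Fgf23, the phosphate hormone, was not. Pdpn and Gja1 had a shared transcript, and Dkk1 and Gja1 had a full-chain model. The receptors Lrp4, Lrp5 and Lrp6, to which sclerostin binds, were all found with 11, 9 and 7 models. None of the 3 receptor genes had a full-chain model, beside 38.6% of all gene names, or a shared transcript, beside 30.8%. With 3 genes, these counts are too small to set apart from all gene names.

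Markers of the other cells that a ground femur can hold were also present, with 17 of 35 found. Of these 17 genes, 12 had a shared transcript and 11 a full-chain model, beside 5 and 6 of the 8 members and 30.8% and 38.6% of all gene names. Osteoclast markers were found for 3 of 5 genes (Acp5, Ctsk and Mmp9), skeletal muscle for 3 of 5 (Acta1, Ckm and Tnnt3), and in both groups each gene found had a full-chain model and a shared transcript. Of 5 endothelial markers Cdh5, Kdr and Tek were found, 1 with a full-chain model and 2 with a shared transcript. Of 5 neutrophil markers Mpo, S100a8 and S100a9 were found, 2 with a full-chain model and 1 with a shared transcript. The other lists had fewer genes found. The chondrocyte markers Col2a1 and Comp, 2 of 5, had neither a full-chain model nor a shared transcript. The erythroid markers Alas2 and Klf1, 2 of 5, both had a shared transcript and 1 had a full-chain model. Adipoq was found of 5 adipocyte markers, with a shared full-chain model. Models of markers of other cell types thus stood beside those of the bone cell markers, and how much each cell type contributed was not tested. Of the 10 bone cell markers, 8 had a model under their names. The share of all known genes found by name is not given here, and names differed, as for Bglap2. The counts of genes found in these lists are therefore not a check of the tissue.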

How the data were processed

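The labels cover femur RNA-seq of 1 OVX and 1 SHAM sample, and the files used here are a set of assembled transcripts with a separate new-gene list, both for the whole series. Per the study's methods and the labels, the authors ground frozen femurs, extracted RNA with TRIzol and prepared libraries with a SMARTER mRNA-Seq kit. The submitters' processing notes name FastQC, HISAT2, StringTie, featureCounts and the build rn4, with no versions. The deposited values are start and end positions, with a class code and the number of assemblies per model, and no count or coverage was in the files used here. Library strandedness is not given in the sources used here, so the strand of single-exon models could not be checked.

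Members were matched by gene name. Older symbols and gene order came from the RefSeq gene table of GRCr8, whose coordinates were not used with the files. The 21 sequences were assigned to chromosomes by their genes, and the assembly of a model was read from the numbering of transcripts, which changed strand 3 times on each sequence. Junctions are pairs of neighbouring exon ends, compared as exact positions. Promoters came from the RefSeq table of GRCr8. Parsing was tested on simulated records. The planned comparison of expression between OVX and SHAM was not made. Genes named are the members and the listed genes of pathways and cell types, and rCG_37815 and the loci near members were chosen after their values were seen. The members and lists were chosen with earlier results of these data known. Python 3.11.15, numpy 2.4.6, scipy 1.17.1 and matplotlib 3.10.9 were used.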

Additional observations from a re-analysis of the deposited data

How the results depend on the processing

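The number of members found was 8 by name and by exact name, 9 with older symbols and 6 with a full-chain model required, and it fell to 5 when a transcript in both assemblies was required, by the construction of that rule. The median exon length of 2053 bp was 2108 bp over the union of all exons of a gene and 1930 bp for the median model. The share of members' models in both assemblies ranged from 33.3% to 46.2% under the alternatives (at least 500 bp, 2 or more exons, no contained fragments), against 11.2% to 21.6% over all names. The share of junctions in both assemblies was 79.5% for models of at least 500 bp, 73.6% with Bglap2 and 85.7% without Phex, and the share of internal exons that were multiples of 3 was 100% from exon 3 on, all chosen after seeing the data. No other count moved by over 1.5 times under its alternatives.

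The planned comparison of exon length with coding length was not run, because no protein table was used here. No paired analysis was possible because each group has 1 sample and the files hold no value per sample. For the same reason no replicate was left out. A gene not found had no model under its name, which does not show that it was not assembled. Bglap was not found by name and was assembled as Bglap2. Depth is unknown, so a gene that was not assembled is not shown to be absent from the tissue.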

Other observations

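Unnamed models lay within or beside 2 of the members, each with a single exon and found in the second assembly alone. Inside an intron of Runx2 and on its strand was a model of 276 bp (XLOC_009210, chromosome 9, 14054564 to 14054839). Inside the span of Phex and on its strand was a model of 295 bp (XLOC_016376, chromosome X, 38449319 to 38449613), with the code for an intronic position. A model of 556 bp (XLOC_016572, chromosome X, 38471866 to 38472421) had the code for an exon of a reference transcript on the opposite strand and lay past the last assembled Phex exon.

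None of the members was on the list of new genes. The list had 1 new gene within 50 kb of a member, 5.47 kb from Sost and on the opposite strand (XLOC_010362, chromosome 10, 85640239 to 85640813), with a single exon of 575 bp in the second assembly alone.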
